A study of Mus musculus with 6 samples.

Results

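Cells carry proteins in the cytosol that bind foreign or misplaced RNA and DNA and switch on interferon genes. Described here are 9 genes of that machinery in neutrophils taken from dura mater, which is the tough outermost membrane around the brain. They are the RNA helicases Ifih1 and Dhx58, the nucleic acid binders Zbp1, Eif2ak2 and Adar, the adaptors Mavs and Tmem173, and the kinases Tbk1 and Ikbke. The genes were chosen by their known role, with earlier results of these data known, and all 9 were found among the 21955 genes counted. Each passed the filter on low counts, which kept 11903 genes.

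The neutrophils came from wild-type (WT) mice after exposure to a social threat, a condition that all 6 libraries share. There were 3 libraries labelled male and 3 labelled female, and the comparison asks how the state of these cells differs between the sexes after exposure. No library from unexposed mice was analysed here, and the labels give neither the age of the mice nor whether the libraries of a group came from separate animals. Total counts ranged from 17098026 to 20778410 per library. The Y-linked genes Ddx3y, Eif2s3y, Kdm5d and Uty summed to 307 to 318 counts scaled to library size (CPM) in the libraries labelled male and to 312 to 328 CPM in those labelled female. That goes against the label female in all 3 libraries, so each direction below is between libraries as labelled, not between male and female mice. Female replicate 3 stood apart from the rest of its group, with a chi-square per degree of freedom of 14.1 and 17.4 against replicates 1 and 2, which differed from each other by 5.33.

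In this machinery MDA5, the product of Ifih1, binds long double-stranded RNA and signals through the mitochondrial adaptor MAVS. LGP2, the product of Dhx58, is a related helicase without signalling domains of its own that tunes MDA5. Cytosolic DNA is sensed by cGAS, whose second messenger activates STING, the product of Tmem173 (now named Sting1). The kinases TBK1 and IKK epsilon (Ikbke) then phosphorylate interferon regulatory factors. PKR (Eif2ak2) halts translation when it binds double-stranded RNA, ZBP1 senses left-handed Z-form nucleic acid and can start cell death, and ADAR1 (Adar) edits double-stranded RNA of the cell itself. Several of these genes are themselves induced by interferon, while Mavs and Tbk1 are best known as constitutive genes.

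The response element of interferon-stimulated genes (ISRE) was looked for because sensor genes that interferon induces can carry it near their start. RefSeq promoter windows of build GRCm38.p6, each 300 bases long from 250 before to 50 after a start, were found for 6 of the 9 genes and gave 8 windows. The windows belong to Ifih1, Mavs, Eif2ak2, Tbk1 and Ikbke, with several for Adar. The element was searched on both strands as GAAANNGAAA. It occurred in 2 of the 8 windows and in 3.44% of 32851 windows of all genes. Stretches of 30 bases are shown 5′ to 3′ on the gene's strand, with the element in capitals, and Ddx58 (RIG-I, the other main RNA helicase sensor, not among the 9 genes) is shown beside them.
Ifih1: gagaagagaatcGAAACAGAAAccgatctg
Eif2ak2: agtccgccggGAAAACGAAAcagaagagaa
Ddx58: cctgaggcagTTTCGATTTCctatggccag
The stretches lie at chr2:62646206-62646235, chr17:78882535-78882564 and chr4:40239804-40239833, all on the minus strand of GRCm38.p6. The counts were made on another build. Counted from the RefSeq start, the element begins at base 33 in Ifih1, at base 19 in Eif2ak2 and at base 3 in Ddx58, where it stands on the opposite strand. A second motif, the gamma-activated site TTCNNNGAA, which reads alike on both strands, occurred in windows of Eif2ak2 and Adar, in 2 of 8 windows against 8.30% of all windows. A match is a run of letters and not a site shown to be bound. Only exact matches were counted, so a window without a match may hold a near match.

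Among the 9 genes, those of RNA sensors fell in libraries labelled female, and the adaptor and kinase genes did not follow as a block. Of the 9 genes, 6 were lower (Ifih1, Dhx58, Zbp1, Eif2ak2, Adar and Ikbke), Tmem173 was slightly higher, and Mavs and Tbk1 did not pass the test. Over all genes tested, 6.62% were lower and 7.29% higher at the same threshold, an adjusted p under 0.05 by edgeR's quasi-likelihood test. The median log2 fold change of the 9 genes was -0.44, against 0.00 over all genes tested. In the 6 lower genes every library labelled female was below every library labelled male, as in 15.0% of all genes, and Tmem173 showed the reverse, as did 15.9% of all genes. Without female replicate 3 the counts were again 6 lower and 1 higher, with log2 fold changes of -1.07 for Zbp1, -0.73 for Ifih1, -0.73 for Dhx58, -0.45 for Eif2ak2, -0.38 for Adar, -0.45 for Ikbke and 0.24 for Tmem173. Adjusted p-values below are from that test with Benjamini-Hochberg adjustment over all 11903 genes, a negative log2 fold change means a lower level under the label female, and levels are CPM after TMM scaling.

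**Figure D1:**
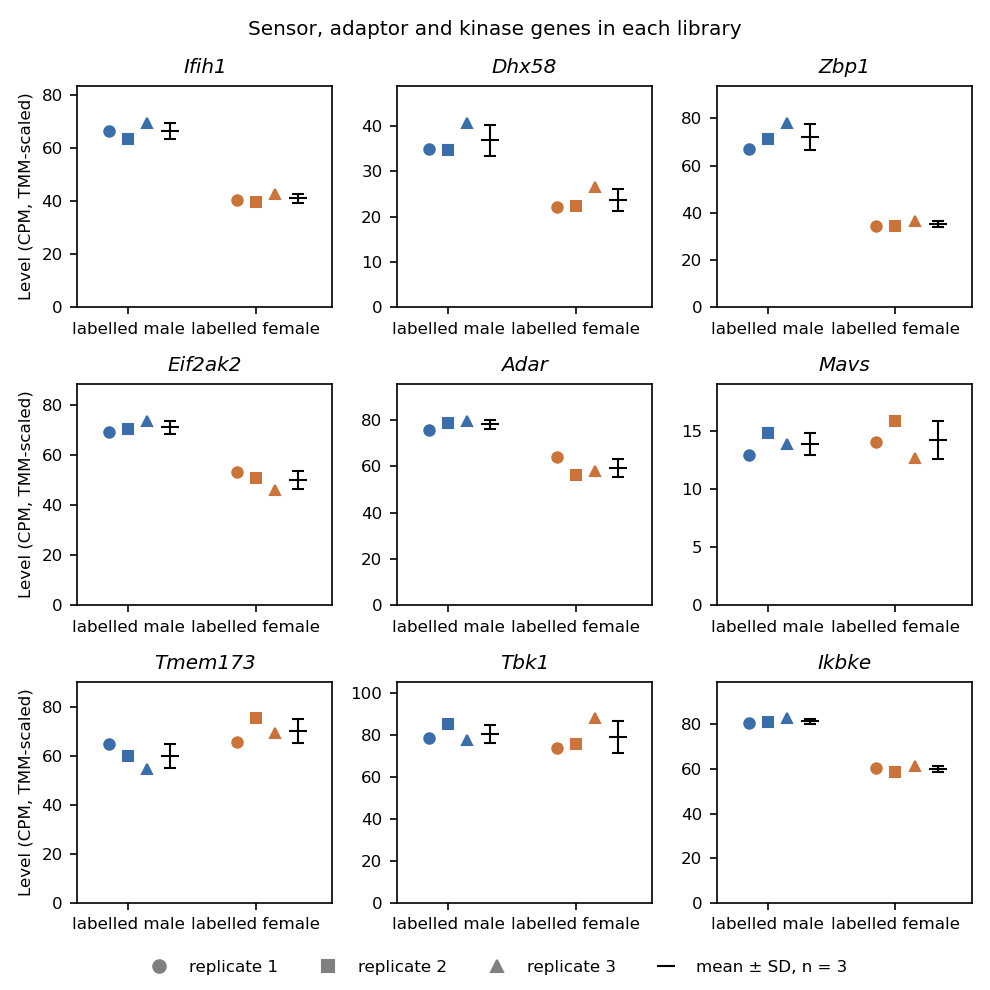
Level of each gene in every library, in CPM on a linear axis from 0, for the 3 libraries labelled male (blue) and the 3 labelled female (orange), with marker shapes for replicate numbers and black bars for mean ± SD. The groups stand apart for Ifih1, Dhx58, Zbp1, Eif2ak2, Adar and Ikbke, lie close together without overlap for Tmem173, and overlap for Mavs and Tbk1.

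Zbp1 (ENSMUSG00000027514, chromosome 2), the Z-nucleic-acid sensor, had the largest difference of the 9. Its level was 67.1, 71.2 and 78.1 CPM in libraries with the label male and 34.3, 34.5 and 36.7 CPM in those labelled female. The lowest library labelled male was thus well above the highest labelled female. The level fell from 72.1 ± 5.55 to 35.2 ± 1.36 CPM (SD, n = 3), 2.05-fold, with a log2 fold change of -1.03 (SE 0.075, adjusted p = 6.52e-09). By p-value Zbp1 ranked 16 among all genes tested.

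Ifih1 (ENSMUSG00000026896, chromosome 2), the MDA5 gene, came next. It stood at 66.5, 63.6 and 69.6 CPM in libraries with the label male and at 40.6, 39.7 and 42.9 CPM in those labelled female. The spread within each group was small beside the gap between them. Ifih1 fell 1.62-fold, from 66.6 ± 2.99 to 41.1 ± 1.69 CPM (log2 -0.70, SE 0.07, adjusted p = 6.61e-07).

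Dhx58 (ENSMUSG00000017830, chromosome 11), the LGP2 gene, had 35.0, 34.8 and 40.7 CPM in libraries with the label male and 22.1, 22.3 and 26.5 CPM in those labelled female. Replicate 3 was the highest library in each group, and the groups did not overlap. The gene fell 1.56-fold, from 36.8 ± 3.32 to 23.6 ± 2.46 CPM (log2 -0.64, SE 0.095, adjusted p = 8.91e-05). A non-coding antisense gene, Dhx58os, shares 4.31% of the exon bases of Dhx58, and reads of the pair cannot be told apart without strand.

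Eif2ak2 (ENSMUSG00000024079, chromosome 17), the PKR gene, had 68.9, 70.2 and 73.6 CPM in libraries with the label male and 53.2, 50.6 and 45.9 CPM in those labelled female. All libraries labelled female lay below the others by more than the range within either group. The fall was 1.42-fold, from 70.9 ± 2.42 to 49.9 ± 3.67 CPM (log2 -0.51, SE 0.071, adjusted p = 4.01e-05).

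Adar (ENSMUSG00000027951, chromosome 3), the RNA-editing enzyme gene, had the smallest difference of the 6 lower genes. It stood at 75.8, 78.9 and 79.8 CPM in libraries with the label male and at 63.9, 56.4 and 57.9 CPM in those labelled female. The highest library labelled female, replicate 1, was still below the lowest labelled male. Adar fell 1.32-fold, from 78.2 ± 2.10 to 59.4 ± 3.97 CPM (log2 -0.40, SE 0.067, adjusted p = 0.000366). The acetylcholine receptor gene Chrnb2 on the opposite strand shares 16.8% of the exon bases of Adar and had 1.95 and 1.85 CPM on average in the 2 groups. The interferon-induced and the constitutive form of Adar start at different first exons, and counts per gene add them together.

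Ikbke (ENSMUSG00000042349, chromosome 1) encodes IKK epsilon, the inducible partner of TBK1. It had 80.5, 81.0 and 82.7 CPM in libraries with the label male and 60.7, 58.5 and 61.2 CPM in those labelled female. These were the tightest groups among the 9 genes relative to their level. Ikbke fell 1.35-fold, from 81.4 ± 1.14 to 60.1 ± 1.48 CPM (log2 -0.44, SE 0.062, adjusted p = 5.42e-05).

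Tbk1 (ENSMUSG00000020115, chromosome 10), the constitutive kinase, had 78.3, 85.4 and 77.5 CPM in libraries with the label male and 73.7, 75.7 and 87.8 CPM in those labelled female. The groups overlapped over most of their range, and the highest and the lowest library both carried the label female. The log2 fold change was -0.02 (SE 0.072, 95% interval -0.17 to 0.13, adjusted p = 0.867), an interval that does not reach the estimate for Ikbke.

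Mavs (ENSMUSG00000037523, chromosome 2), the adaptor of the RNA route, had 12.9, 14.8 and 13.9 CPM in libraries with the label male and 14.1, 15.9 and 12.7 CPM in those labelled female. The groups overlapped throughout. With 228 to 315 counts per library it was the least deeply counted of the 9 genes, and its interval was the widest (log2 0.04, SE 0.121, 95% interval -0.21 to 0.29, adjusted p = 0.874).

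Tmem173 (ENSMUSG00000024349, chromosome 18), the STING gene, had 64.9, 60.3 and 54.9 CPM in libraries with the label male and 66.0, 75.5 and 69.7 CPM in those labelled female. The groups were separated by the small gap between male replicate 1 and female replicate 1. The gene rose 1.17-fold, from 60.1 ± 5.0 to 70.4 ± 4.75 CPM (log2 0.23, SE 0.074, adjusted p = 0.0443). This call was near the threshold and disappeared on leaving out male replicate 2 (log2 0.23, adjusted p = 0.117), male replicate 3 (log2 0.17, adjusted p = 0.239), or else female replicate 2 (log2 0.18, adjusted p = 0.209). It was lost as well with DESeq2 (adjusted p = 0.0524), upper-quartile factors in edgeR (0.063), a filter of 10 CPM (0.0538) and without mitochondrially encoded genes (0.0514).

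**Figure D2:**
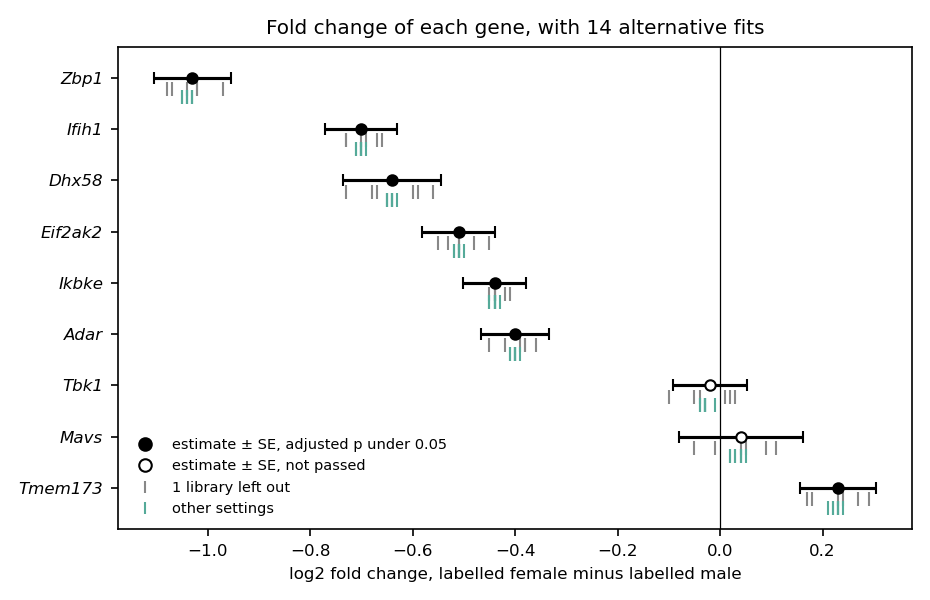
Log2 fold change of each gene (negative where lower under the label female) with its standard error (circles, filled where the adjusted p is under 0.05) and its value in 14 alternative fits (grey ticks with 1 library left out, green ticks for other settings). The 6 lower genes stay between -1.08 and -0.36 in these fits, while the estimates for Tbk1 and Mavs fall on either side of 0.

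Levels were compared between genes per kilobase of exon, since longer transcripts collect more counts. Mavs was the lowest of the 9 in each of the 6 libraries, at 4.15 ± 0.292 CPM per kilobase in the libraries labelled male and 4.26 ± 0.469 in those labelled female. Averaged over the groups it lay at percentile 42.8 of all genes tested. Tmem173 lay at percentile 84.1, with 21.9 ± 1.82 and 25.7 ± 1.73 CPM per kilobase, and was the highest of the 9 in 5 of the 6 libraries. The adaptor of the DNA route was therefore counted at several times the level of the adaptor of the RNA route in these libraries.

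In the libraries labelled male, Tbk1 (20.6 ± 1.11 CPM per kilobase) and Zbp1 (20.4 ± 1.57) overlapped with Tmem173. Below them came Eif2ak2 (13.9 ± 0.474), Dhx58 (11.3 ± 1.01), Adar (9.63 ± 0.259), Ikbke (9.03 ± 0.126) and Ifih1 (8.15 ± 0.366), each apart from its neighbours in that order. In the libraries labelled female Tmem173 stood above Tbk1 (20.2 ± 1.94) without overlap. Zbp1 (9.97 ± 0.384 CPM per kilobase) had moved down beside Eif2ak2 (9.76 ± 0.717), and their values overlapped. Adar (7.32 ± 0.489), Dhx58 (7.23 ± 0.753) and Ikbke (6.67 ± 0.164) followed with neighbours overlapping, and Ifih1 (5.03 ± 0.207) stood apart from Ikbke above and Mavs below. Exon lengths come from gene models of the older build and count every annotated isoform, so the order is approximate.

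Ratios within a library do not depend on how libraries are scaled. In this way 5 pairs of related genes were compared as log2 ratios of counts per kilobase. Each difference follows from the fold changes of the paired genes, so it is no separate support for the calls above. How often ratios of other gene pairs do not overlap between the groups was not counted. The ratio of Ikbke to Tbk1, the paralogous kinases, was -1.17, -1.28 and -1.11 in the libraries labelled male and -1.49, -1.58 and -1.72 in those labelled female. It differed by -0.41 on the log2 scale, and the groups did not overlap. The ratio of Zbp1 to Adar, which both hold a domain for Z-form nucleic acid, was 1.03, 1.05 and 1.17 against 0.31, 0.49 and 0.55. That difference of -0.64 means that Zbp1 was lower by more than Adar, also without overlap. Eif2ak2 was set against Eif2ak1, a haem-regulated kinase of the same translation factor. Their ratio was 0.21, 0.17 and 0.21 against -0.31, -0.25 and -0.46, a difference of -0.54.

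The helicases kept closer to each other. The ratio of Dhx58 to Ifih1 was 0.39, 0.45 and 0.55 in the libraries labelled male and 0.44, 0.49 and 0.62 in those labelled female, a difference of 0.05 within the spread of either group. The ratio of Tmem173 to Mavs was 2.62, 2.31 and 2.27 against 2.51, 2.54 and 2.74, a difference of 0.20 with overlapping groups. Exact two-sided permutation tests gave p = 0.1 for each of the 3 ratios without overlap, the smallest value that 3 against 3 allows. The exact tests gave p = 0.6 for Dhx58 to Ifih1 and p = 0.3 for Tmem173 to Mavs. Adjusted over the 5 pairs, the permutation p-values were 0.167, 0.6 and 0.375, and no pair could have passed 0.05 in this design.

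**Figure D3:**
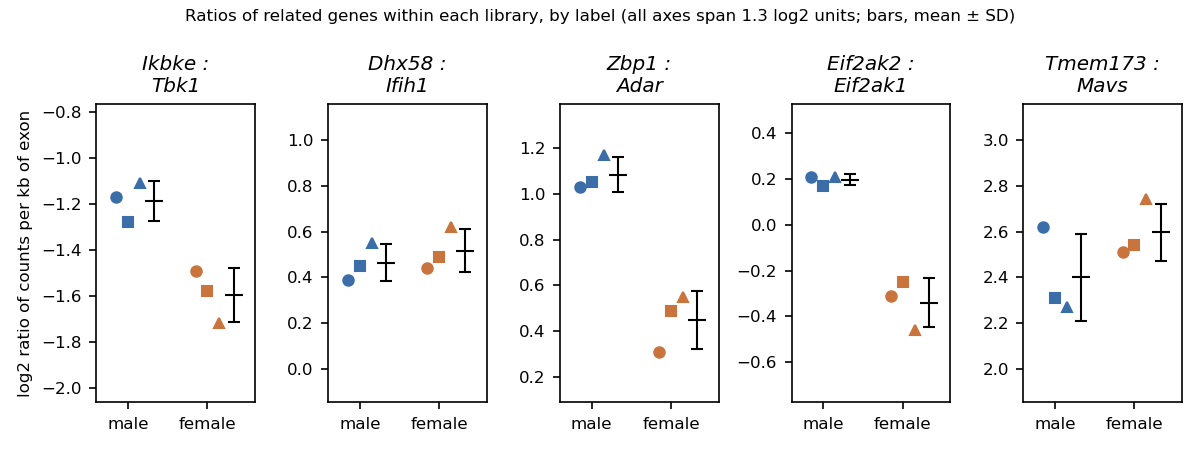
Log2 ratio of counts per kilobase of exon for 5 pairs of related genes in each library, by label, with mean ± SD (black bars). Each axis spans the same number of log2 units. The ratios Ikbke to Tbk1, Zbp1 to Adar and Eif2ak2 to Eif2ak1 are lower in all libraries labelled female, whereas Dhx58 to Ifih1 and Tmem173 to Mavs overlap between the groups.

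The wider pathway was read from 5 lists of 116 genes chosen by their known role, of which 112 were tested. Of these, 14 were lower and 3 higher in the libraries labelled female by edgeR. The share of lower genes was 12.5%, against 6.62% over all genes, and that of higher genes 2.68%, against 7.29%. The median log2 fold change was -0.05. The number of higher genes was 1 without male replicate 1 or 3 and 11 of 113 tested without female replicate 3. Over all genes, 1439 of 12078 were higher and 1269 lower without female replicate 3, against 868 and 788 of 11903 in the main fit. The rise was thus not particular to this pathway. These counts are also the background for the lists below where that library is left out. Without male replicates 1 and 3, 503 of 12056 and 439 of 12068 genes were higher.

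Among 32 other RNA sensors and their regulators 4 were lower (12.5%) and 2 higher (6.25%). Over all genes tested the shares were 6.62% and 7.29%, so the higher share was near that of all genes. The median log2 fold change of the list was 0.01. Ddx58, the RIG-I gene, had 66.4, 83.9 and 74.9 CPM in libraries with the label male and 60.0, 51.7 and 53.9 CPM in those labelled female. It fell 1.36-fold without overlap (log2 -0.44, SE 0.082, adjusted p = 0.000821), by less than Ifih1, although that difference between helicases was not tested. Trim25, a ubiquitin ligase that acts on RIG-I, fell 1.19-fold, a call that ended on leaving out male replicate 2 (adjusted p = 0.0719) or 3 (0.13). Nlrc5, a regulator of MHC class I genes that also binds RIG-I, fell 1.49-fold to 41.3 ± 3.17 CPM, and the galectin gene Lgals9 fell 1.28-fold.

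Mex3c, an RNA-binding ubiquitin ligase, rose 1.18-fold (adjusted p = 0.0425). Its call was lost without each of male replicate 1, 2 and 3 (adjusted p = 0.137, 0.0781 and 0.154) and without female replicate 1 (0.165) or 2 (0.16). In this list 1 gene was higher without any single library of those 5, and 4 were higher without female replicate 3. By DESeq2, limma-voom, upper-quartile factors, a filter of 10 CPM or no mitochondrially encoded genes 1 was higher.

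On the DNA side, 1 of 25 genes was lower (4.0%) and none higher by edgeR, against 6.62% and 7.29% over all genes tested. None was higher by DESeq2 or limma-voom. At an unadjusted p under 0.05, 4 were higher and 3 lower, shares near those over all genes tested (14.3% higher and 13.3% lower). At the adjusted threshold, upper-quartile factors, a filter of 10 CPM and the replicate block gave 2 lower, and the block and no filter 1 higher. The lower gene was Aim2, a DNA sensor that forms inflammasomes, at 89.8 ± 3.56 and 73.6 ± 0.856 CPM (adjusted p = 0.00336). Cgas, which makes the messenger for STING, had 33, 30.1 and 27.4 CPM in libraries with the label male and 26.9, 24.6 and 23.6 CPM in those labelled female. Its groups were separate by a narrow margin, and the log2 fold change of -0.27 did not pass (SE 0.094, adjusted p = 0.0591). Cgas passed with the replicate block (adjusted p = 0.0384), with upper-quartile factors (0.0475) and with a filter of 10 CPM (0.0461). The labels do not say whether replicate numbers pair these libraries. Without female replicate 3, 2 genes of this list were higher and 2 lower.

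Of 23 tested genes of the kinase complex and its relay to transcription factors, 4 were lower (17.4%) and none higher by edgeR. Over all genes tested 6.62% were lower and 7.29% higher at that adjusted threshold. DESeq2 and limma-voom gave the same counts for the list. At an unadjusted p under 0.05, 2 were higher and 6 lower (14.3% and 13.3% over all genes). Irf7, the inducible interferon regulatory factor, fell 2.23-fold, from 138 ± 7.04 to 61.7 ± 6.48 CPM (adjusted p = 1.16e-09). Irf3, the constitutive factor that TBK1 phosphorylates, had 42.2 ± 2.02 and 39.3 ± 4.27 CPM and did not pass (log2 -0.10, 95% interval -0.28 to 0.08, adjusted p = 0.478). It was named after its values were seen. Tnfaip3, an inhibitor of the relay, fell 1.33-fold and the kinase gene Ikbkb 1.25-fold. Irf5 fell by 0.20 on the log2 scale. Dropping any single library labelled male (adjusted p = 0.175, 0.0897 and 0.0785 for replicates 1 to 3) ended that call, and so did dropping female replicate 1 (0.0935) or 2 (0.118). Without female replicate 3, 2 genes of this list were higher, and with the replicate block or no filter 1 was.

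Of 15 tested nuclease and clearance genes, 2 were lower (13.3%) and none higher by edgeR, DESeq2 or limma-voom. By edgeR 6.62% of all genes tested were lower and 7.29% higher at the adjusted threshold. The counts of the list at an unadjusted p under 0.05 were the same as at the adjusted threshold. At that looser threshold 2 of 15 is the share of lower genes over all genes tested, 13.3%, and 14.3% of all genes were higher. Pld4, an exonuclease of endolysosomes, fell 1.35-fold to 279 ± 13.2 CPM, and Pnpt1, a mitochondrial RNA exonuclease, fell 1.21-fold. The call for Pnpt1 was lost without male replicate 3 (adjusted p = 0.0626), which left 1 lower gene.

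A list of 17 genes around ZBP1 and PKR holds effectors and also Eif2ak1, Eif2ak3 and Eif2ak4, kinases other than PKR. Of the 17 genes, 3 were lower (17.6%) and 1 higher (5.88%), against 6.62% and 7.29% over all genes tested. At an unadjusted p under 0.05 by edgeR, 5 were lower and 4 higher, against 13.3% and 14.3% over all genes. The 3 genes lower at the adjusted threshold were stress response genes that lie downstream of the translation block. Atf3 fell 1.47-fold to 415 ± 22.1 CPM, Ddit3 1.46-fold to 25.7 ± 1.70 CPM, and Ppp1r15a, the inducible subunit of the phosphatase that undoes the block, 1.43-fold from 247 ± 1.16 to 173 ± 12.4 CPM. Atf4, of the same list, overlapped between the groups and did not pass (507 ± 15.5 and 443 ± 48.8 CPM, log2 -0.19, adjusted p = 0.0626). Atf4 was named after its values were seen. The constitutive phosphatase subunit Ppp1r15b rose 1.16-fold, from 379 ± 5.02 to 439 ± 12.8 CPM (adjusted p = 0.0132). The call for Ppp1r15b was lost without male replicate 1 (adjusted p = 0.0742), 2 (0.0533) or 3 (0.0812). Without male replicate 1 or 3 no gene of this list was higher by edgeR, and without female replicate 3 the list had 3 higher and 5 lower genes. With DESeq2, upper-quartile factors, a filter of 10 CPM, the block or no mitochondrially encoded genes it had 5 lower, and with no filter 3 higher. Ripk3 and Mlkl, through which ZBP1 starts necroptosis, had log2 fold changes of -0.05 each (adjusted p = 0.73 and 0.732). The caspase genes Casp8 (log2 -0.17, adjusted p = 0.0543) and Casp6 (log2 0.32, adjusted p = 0.072) did not pass either. Their groups did not overlap, with Casp8 lower and Casp6 higher under the label female. All of these were named after their values were seen.

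**Figure D4:**
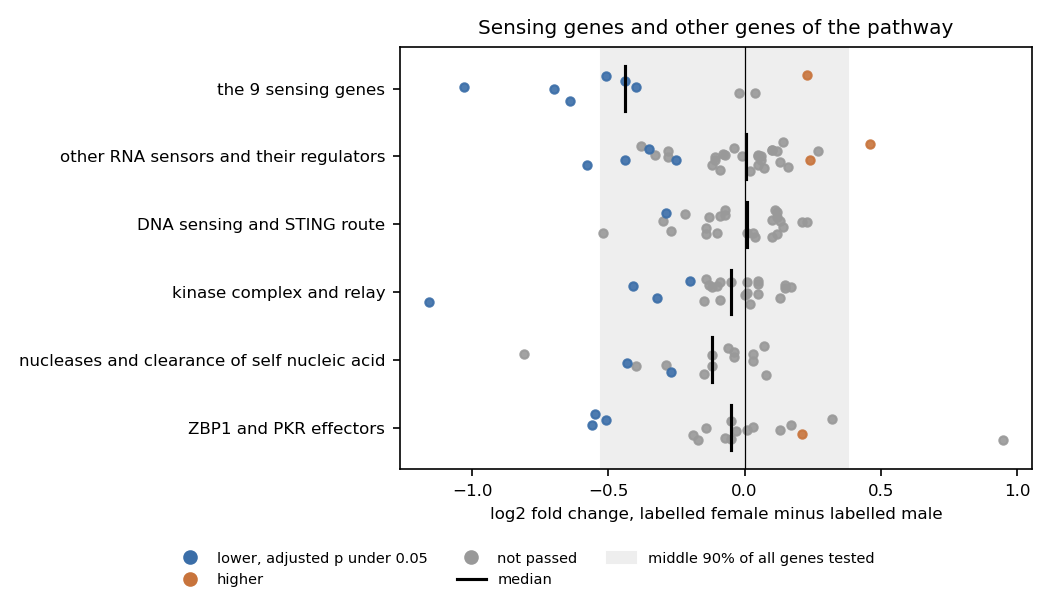
Log2 fold changes of the 9 sensing genes and of the tested genes of 5 other pathway lists, negative where lower under the label female. Points are genes, blue where lower and orange where higher at an adjusted p under 0.05, black lines are medians and the grey band holds the middle 90% of all genes tested. The median is -0.44 for the 9 genes and between -0.12 and 0.01 for the other lists.

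By a rule set on likeness, the 3 other genes whose log2 CPM followed each changed gene most closely over the 6 libraries were found among 7161 genes. The libraries form separate groups, so any gene with a tight difference between them scores high, and r is given as a description. Nearest to Ikbke were Mx1 (r = 0.999), Cited2 and Ikbkb, and nearest to Ifih1 were Gadd45b (r = 0.999), Trim30a and Irf7. Zbp1 was nearest to Eml3, Tspoap1 and Map3k8. Eif2ak2 was nearest to Bcr, Parp14 and Camkk2, Adar to Mlxip, Rnf123 and Helz2, and Dhx58 to Clec10a, Tnf and Eif4a1. For Tmem173 they were Pnisr (r = 0.99), Krt80 and Arl8b, and none of these had a call of its own (adjusted p 0.0878 to 0.416 by edgeR). Bcr (adjusted p = 0.193), Camkk2 (0.0511) and Eif4a1 (0.075) had no call by edgeR either.

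Most markers of dendritic cells and B cells were lower, as the sensor genes were. Of 12 neutrophil markers with a row 9 were higher and none lower by edgeR in the libraries labelled female, with S100a9 the most abundant (15700 and 19100 CPM), so the labelled cell type was present in both groups. Of 12 dendritic cell markers 9 were lower, and their sum was 982 to 985 CPM in libraries with the label male and 722 to 738 CPM in those labelled female (Irf8 most abundant, 399 and 325 CPM). Of 10 B cell markers 7 were lower, with sums of 277 to 340 and 166 to 232 CPM. No marker of either list was at 0. Macrophage and monocyte markers, 13 in number, summed to 2140 to 2210 and 2370 to 2420 CPM, with 1 lower and 2 higher (Ly6c2 most abundant, 1160 and 1130 CPM).

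T and NK cell markers summed to 146 to 167 and 137 to 164 CPM with 1 of 9 lower (Nkg7 most abundant, 101 and 100 CPM). Of 11 stromal markers 7 were tested, 2 lower and 1 higher, and their sums were 81.1 to 86.6 and 64.6 to 75.7 CPM (Pecam1 most abundant, 51.2 and 44.7 CPM), with Col3a1 and Lum under 10 counts in every library. Erythroid markers summed to 19.5 to 24.7 and 36.2 to 66.0 CPM, with 4 of 7 higher (Hbb-bs most abundant, 8.89 and 25.9 CPM). Mitochondrially encoded transcripts took 10.7 to 13.1% of counts in the libraries labelled male and 6.42 to 8.49% in those labelled female. The part of these cells and transcripts in the sensor genes' result was not tested. In such bulk samples, fewer cells that carry a transcript and less of it per cell cannot be told apart.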

How the data were processed

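Poly-A RNA of meningeal neutrophils was sequenced on an Illumina NovaSeq from random-primed cDNA, per the labels' protocols, which name no step that marks strand. Per the submitters' processing notes, cutadapt 1.15, HISAT2 2.0.5 and the build GRCm39 were used. The sources used here name neither a counting tool nor a rule for shared reads. Raw counts per Ensembl gene, not normalized, were deposited, 1 file per library. Symbols and exon lengths came from GENCODE M21 (GRCm38), which named 21898 of 21955 identifiers.

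The test was that of edgeR 4.0.16 (R 4.3.3): filterByExpr with a minimum count of 10, TMM, quasi-likelihood test, Benjamini-Hochberg threshold 0.05, label group as the only term. SEs were derived from the fold change and F. The pipeline was also run on simulated counts with independent libraries. None of these was made to stand apart as female replicate 3 does, so that run does not cover this case. Pairs within a group had a chi-square of 4.19 to 17.4 per degree of freedom, above sampling noise, so each library is 1 replicate. Whether each is a separate animal is not stated, and p-values then reflect only library spread, which may be technical. The overall precision is set by 3 libraries per group. Single ratios were compared by exact permutation.

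Alternatives were edgeR with size factors of DESeq2 1.42.0 or with upper-quartile factors, DESeq2 itself, limma-voom (limma 3.58.1), either no filter or one of 10 CPM in 3 libraries, no mitochondrially encoded genes, the replicate block and leaving out each library. Genes named are the 9, up to 4 called genes per direction of each pathway list with the smallest p, Ddx58 and Cgas, the most abundant gene of each marker list and the 3 genes most like each called gene (mean of at least 4 log2 CPM, with an established symbol). Members and lists were chosen with earlier results of these data known. No protein sequences were used here. Of the genes this rule names, 2 are not reported here.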

Additional observations from a re-analysis of the deposited data

How the results depend on the processing

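The 6 lower genes kept their direction and their call in all 14 alternative fits, with adjusted p-values of at most 0.00601. Mavs (log2 -0.05 to 0.11) and Tbk1 (-0.10 to 0.03) passed in none. The count of higher genes among the 9 was 0 with upper-quartile factors, DESeq2, a filter of 10 CPM or no mitochondrially encoded genes, and 0 to 1 when 1 library was left out. Among the pathway genes the higher count was 7 with no filter, 5 with the replicate block, and 1 to 11 with 1 library left out, and the lower count 11 to 19. Over all genes, leaving out 1 library gave 439 to 1439 higher and 467 to 1269 lower genes, the extremes without male replicate 3 and without female replicate 3. The cause was not tested. The differences in log2 ratio ranged from -0.47 to -0.35 for Ikbke to Tbk1, 0.00 to 0.10 for Dhx58 to Ifih1, -0.68 to -0.56 for Zbp1 to Adar, -0.58 to -0.48 for Eif2ak2 to Eif2ak1 and 0.12 to 0.31 for Tmem173 to Mavs. Deviations of libraries with the same replicate number correlated at -0.039, 0.065 and 0.063, so the numbers were not taken to pair them. With the replicate block 1007 genes were higher and 914 lower, and the same 7 calls among the 9 genes held. Depth limits Mavs most, and intervals cover the spread of 3 libraries per group.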

Other observations

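Of the 116 pathway genes 4 were not tested. Trex1, the main cytosolic DNA exonuclease, was listed at 0 in all 6 libraries, where a count of 0 allows up to 3 counts per library by counting error alone. All 1147 of its annotated exon bases lie within exons of Atrip on the same strand, and Atrip averaged 15.2 CPM under the label male and 13.3 under the label female. Calcoco2 and Adarb2 were also listed at 0 throughout. Fen1 had 2, 6 and 10 counts in the libraries labelled male and 16, 10 and 9 in those labelled female. An antisense gene shares 78.8% of its exon bases. Levels of Trex1 and Fen1 are therefore not readable from these counts.

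Over all tested genes with a RefSeq promoter window, the ISRE letters were present for 58 of 615 genes that were lower in the libraries labelled female (9.43%). They were present for 20 of 682 higher genes (2.93%) and for 298 of 8134 genes that did not pass (3.66%). For the gamma-activated site the shares were 9.76%, 6.6% and 8.51%. These shares are descriptions without a test.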
